A study of Drosophila melanogaster with 36 samples.

Results

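The CG4068 and CR18854 loci of Drosophila melanogaster each give rise to a long RNA that folds back on itself, and both were followed here as siRNA loci in S2 cells, a line derived from fly embryos. They were taken by their identifiers from the 6 tables of siRNA loci: CG4068 is an entry of its own, and the entry overlap-3 covers the CR18854 hairpin. These are 2 of 13063 loci counted in each table. The loci comprised 8873 transposable-element fragments (FBti), 3477 regions where transcripts of opposite strands overlap (cisNAT), 709 merged entries (overlap, with overlap-3) and 4 hairpin entries (with CG4068). The CG4068 locus lies on the minus strand of chromosome X:4921677-4928133 (dm6, 6457 nt), which is the whole of the annotated hairpin gene hpRNA:CR46342, and it also overlaps the gene CG44774 on the same strand. The overlap-3 locus lies on the minus strand of chromosome 2L:9787285-9790745 (3461 nt) and holds hpRNA:CR18854 (9787294 to 9790745), while the gene IP3K1 on the plus strand runs into its 3′ part up to 9788499.

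Dicer-2 cuts the double-stranded stem of such hairpins into endogenous siRNAs, which are mainly loaded into Ago2, the slicing Argonaute of flies. The methyltransferase Hen1 then adds a 2′-O-methyl group to the 3′ end of small RNAs in Ago2. A smaller part of the siRNAs enters Ago1, whose usual guides are miRNAs with unmethylated ends. Dora is the fly ortholog of ZSWIM8, a ubiquitin-ligase adaptor needed for target-directed degradation, in which extensive pairing to a target leads to loss of the Argonaute and its guide. The comparisons ask whether siRNAs of these hairpins change when Dora or Hen1 is missing, and in which Argonaute.

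The small-RNA libraries with locus values came from 9 groups of 3 clonal lines each. Total small RNA was sequenced from WT, dora and hen1 lines, and periodate-treated RNA from WT and dora lines. Periodate oxidation with β-elimination blocks small RNAs whose 3′ end is unmethylated, so that mainly Ago2-loaded RNA is sequenced. Ago1 was isolated from WT and dora lines with a FLAG-GST-tagged fragment of human TNRC6B, a GW182 ortholog that binds Ago1 (Ago1-IP). Ago2 was isolated as a FLAG-tagged protein from hen1 and hen1/dora lines (Ago2-IP), so that both Ago2-IP groups lack Hen1 and carry a tagged Ago2. Polyadenylated RNA of WT and dora lines was sequenced by RNA-seq (3 lines each). No locus values of total small RNA were analysed here for hen1/dora lines. The lines were knocked out with Cas9, each replicate is a different clone, and the spread between libraries therefore includes differences between clones. The dora and hen1 mRNAs were not analysed here, and the knockouts were not checked on them.

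Over all loci the libraries held 21001 to 244056 reads, and every library other than 1 held at most 137990. In units of 1 read, the values of Ago1-IP libraries summed to 21001 to 36168, and total small-RNA libraries of WT lines to 45419 to 54252. A single other locus, cisNAT-1355, held 37.5% to 40.2% of the locus reads of Ago1-IP WT libraries and 27.0% to 32.4% of those of Ago1-IP dora libraries, against 8.26% to 9.90% in total RNA of WT lines and 0.167% to 0.271% in treated WT libraries. In 1 treated library of dora lines it held 15.0%. Shares were therefore also computed without it. The total small-RNA libraries of WT and dora lines came from an earlier study, so that differences from total RNA to treated or Ago1-IP RNA cannot be told apart from a difference of library batch. The same holds for WT against hen1 lines.

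The sequences show what these loci are made of, and why a value of CG4068 is harder to read than one of overlap-3. The CG4068 RNA is a tandem repeat. Its best-known siRNA, CG4068_1, was taken as the complement of the study's northern probe, and the seed (bases 2 to 8) is in capitals:
CG4068_1: tTGACTCCaacaagttcgctcc
This 22-nt sequence occurs 20 times in the genome, every time on the minus strand within the CG4068 locus, the 5′-most copy at chromosome X:4927224-4927245. Neighbouring copies are 270 nt apart in 9 cases and 283 nt apart in 10. The first repeat unit (X:4926976-4927245, minus strand) is shown whole with the siRNA in capitals:
CG4068 repeat unit 1: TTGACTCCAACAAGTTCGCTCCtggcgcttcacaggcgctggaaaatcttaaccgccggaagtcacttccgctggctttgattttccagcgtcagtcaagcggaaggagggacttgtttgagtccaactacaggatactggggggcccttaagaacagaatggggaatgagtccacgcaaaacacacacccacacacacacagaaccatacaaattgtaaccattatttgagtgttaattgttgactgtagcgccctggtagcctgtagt
The 270-nt units are 98.5% to 100.0% identical to this one and the 283-nt units 90.1% to 90.8%. In each of the 20 copies a stretch of 166 nt that contains CG4068_1 is its own inverted repeat (76.6% to 79.0% identity over an alignment of 167 nt), so that any copy can pair with itself or with any of the others. Among the repeats, the search found all 400 such pairings (BLASTN against the complementary strand).

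The 22-nt siRNA also pairs with the mRNA of mus308, which encodes DNA polymerase theta (PolQ in the annotation). The best site lies in the coding sequence at chromosome 3R:12709637-12709658 on the minus strand and is shown because it is the known target of this siRNA, with the bases that form no Watson-Crick pair in capitals:
mus308 site: TgGgcgaGcttgttggagtcaG
Of 22 bases 18 form Watson-Crick pairs with CG4068_1. The other 4 face siRNA positions 1, 15, 20 and 22, counted from its 5′ end. Positions 1, 15 and 20 face a G as G-U wobbles and position 22 is a mismatch, so that 21 bases pair with wobbles counted and the seed has Watson-Crick pairs throughout. Sites were ranked by Watson-Crick pairs, and the next-best site in the 6420-nt mRNA lacks 9 of them.

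CR18854 is built differently. It has a single pair of long arms, of 385 nt (2L:9789925-9790309, in its exon 2) and 390 nt (2L:9788817-9789206, in its exon 4), which are 77.3% identical over an alignment of 396 nt when one is read on the complementary strand. The northern probe for CR18854_1 is complementary to 18 nt of the 5′ arm that are found at 1 place in the genome (2L:9790119-9790136). The stretch around it and the stretch of the 3′ arm that faces it are shown to make the imperfect stem visible, with CR18854_1 and the bases facing it in capitals:
CR18854 5′ arm (2L:9790089-9790166): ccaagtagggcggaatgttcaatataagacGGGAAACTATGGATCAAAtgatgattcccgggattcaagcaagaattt
CR18854 3′ arm (2L:9788958-9789035): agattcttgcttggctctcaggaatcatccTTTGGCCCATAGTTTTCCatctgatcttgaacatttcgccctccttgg
Over these windows 64 of 78 aligned bases can form Watson-Crick pairs, and 15 of the 18 bases of CR18854_1. The 3′ arm is antisense to the mRNA of CG8289 in 2 stretches of 415 aligned nt in all (78.3% and 78.4% identity), and the 5′ arm resembles the same mRNA in the sense direction (354 aligned nt, 74.3% to 87.1%). The best site for CR18854_1 itself in the CG8289 mRNA (X:17634189-17634206) has 12 of 18 Watson-Crick pairs. It lacks 6 of them and the next-best site 7, and the best site in the mus308 mRNA has 11 of 18. For these 18 nt the CG8289 site therefore hardly stands out. They are the part covered by the probe, which does not give the 5′ end of the siRNA, so that its seed is unknown here. The paper reports highly complementary predicted sites in the CG8289 mRNA for several CR18854 siRNAs. Sites of other siRNAs of this hairpin were not searched here. The mRNA levels of mus308 and CG8289 were not analysed here.

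**Figure D1:**
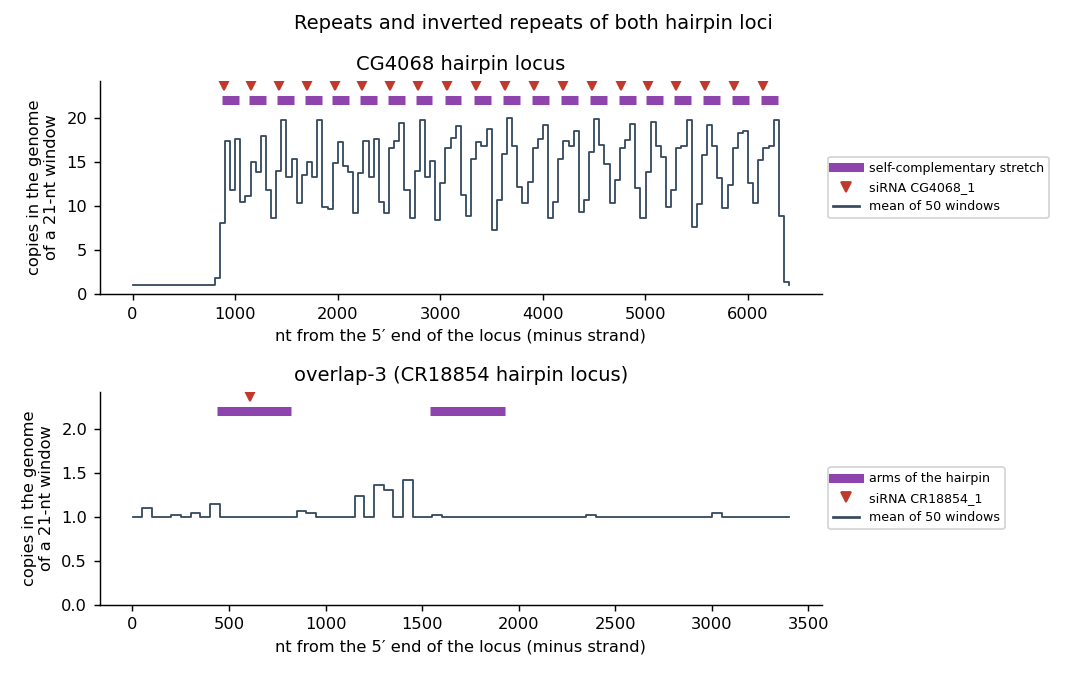
Copies in the genome of 21-nt windows (mean of 50 windows, y axis) along CG4068 and overlap-3, in nt from the 5′ end of each locus (x axis). Purple bars are the 20 self-complementary stretches of CG4068 and the 2 arms of CR18854, and red triangles the copies of CG4068_1 and CR18854_1. Windows of CG4068 are repeated throughout the part with the stretches, whereas those of overlap-3 are found at 1 place with few exceptions.

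The repeats bear on what the locus value can count. Of the 6437 windows of 21 nt in CG4068, 85.1% occur at 2 or more places in the genome, the median at 12 and the most repeated at 36. Only 960 windows (14.9%) are unique, and 90.0% of these lie in the 5′ part before the first self-complementary stretch. This 5′ part lies within the span of CG44774, the gene on the same strand. In overlap-3, 97.4% of 3441 windows are unique. Reads with up to 50 alignments were kept, and no window of either locus has more. The values of CG4068 were whole numbers of reads to within 0.00178 of a read in all 24 libraries of the scaled tables. In the paper, siRNAs of CG4068 are among the 21 most abundant single siRNAs, a list drawn from treated WT libraries. In those libraries the locus value of CG4068 came to 28, 23 and 34 reads. How much of the siRNA from repeated windows, CG4068_1 included, the locus values hold was not tested. All statements on CG4068 refer to the deposited locus value and not to the siRNA output of the hairpin.

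By the deposited locus values, overlap-3 led the siRNA loci and CG4068 took a small share. In total small RNA of WT lines overlap-3 had 18704, 21319 and 17841 reads, or 38.6% ± 1.23 of all locus reads (SD, n = 3), and it ranked first among the 13063 loci in each. CG4068 had 89, 115 and 94 reads, or 0.199% ± 0.0190 (SD, n = 3), and ranked 39 to 53. Per kilobase of locus, overlap-3 had 364 ± 24.7 times the reads of CG4068 in these libraries (SD, n = 3). Of the 21-nt windows, 14.9% are unique in CG4068 and 97.4% in overlap-3. How far the values hold reads of repeated windows was not tested, so they were not taken to compare the siRNA output of the 2 hairpins.

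The mean share of overlap-3 among locus reads was highest in treated WT libraries and lowest in Ago1-IP WT libraries. In order, the mean shares were 44.1% ± 1.95 in treated WT, 42.9% ± 12.2 in treated dora, 40.1% ± 8.44 in total dora, 38.6% ± 1.23 in total WT, 38.3% ± 5.45 in total hen1, 26.5% ± 1.79 in Ago1-IP dora, 26.1% ± 1.50 in Ago2-IP hen1/dora, 19.6% ± 4.06 in Ago2-IP hen1 and 12.8% ± 1.12 in Ago1-IP WT (SD, n = 3 each). The first 5 groups overlapped their neighbours in this order, as did Ago1-IP dora and Ago2-IP hen1/dora. Separate from the next were total hen1 from Ago1-IP dora, Ago2-IP hen1/dora from Ago2-IP hen1, and Ago2-IP hen1 from Ago1-IP WT.

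CG4068 followed another order. Its mean share was 0.265% ± 0.0722 in Ago1-IP dora, 0.206% ± 0.0353 in total dora, 0.199% ± 0.0190 in total WT, 0.117% ± 0.0270 in total hen1, 0.109% ± 0.0413 in Ago1-IP WT, 0.0584% ± 0.0119 in Ago2-IP hen1, 0.0512% ± 0.00623 in Ago2-IP hen1/dora, 0.0333% ± 0.0146 in treated dora and 0.0312% ± 0.00568 in treated WT (SD, n = 3 each). Thus the locus had its smallest shares where CR18854 had its largest, in treated RNA. Only total WT and total hen1, and Ago1-IP WT and Ago2-IP hen1, were separate neighbours in this order. Across all 27 small-RNA libraries the 2 shares had a Pearson correlation of -0.03 on the log2 scale, given as a description because libraries of a group share their preparation.

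**Figure D2:**
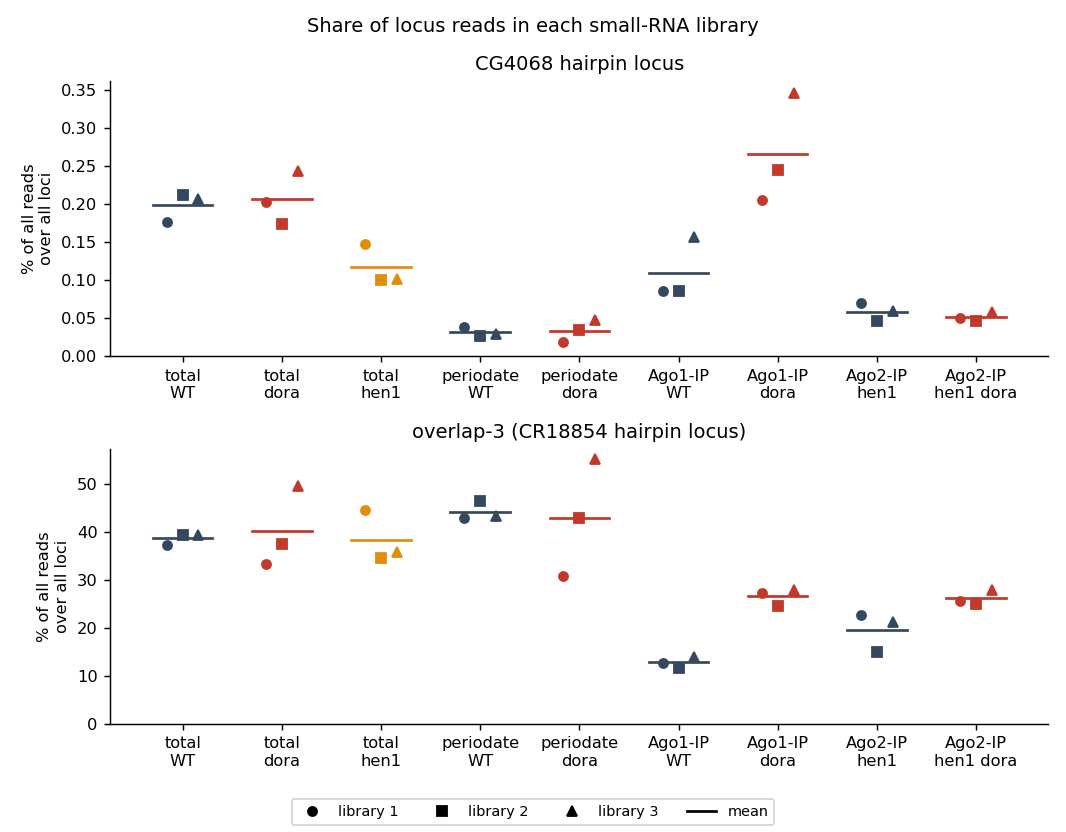
Percent of all reads over the 13063 loci (y axis, from 0) that fell to CG4068 and to overlap-3 in each small-RNA library, by library type and genotype (x axis). Points are the 3 libraries of a group and lines their mean. Overlap-3 took 42.8% to 46.4% of locus reads in treated WT libraries and 11.7% to 14.0% in Ago1-IP WT libraries, and CG4068 0.0267% to 0.0376% and 0.0850% to 0.157%.

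From total to treated RNA of WT lines the share of CG4068 was 0.157 times as large and that of overlap-3 1.14 times as large, and for neither did the groups overlap. Each difference gave p = 0.1 in a two-sided exact permutation test, the smallest p that 3 libraries against 3 allow, and an adjusted p of 0.1 over the 4 comparisons of shares between library types. With cisNAT-1355 left out, the groups of overlap-3 overlapped (42.5% and 44.2% on average). From total to Ago1-IP RNA the share of overlap-3 was 0.331 times as large and that of CG4068 0.550 times as large (p = 0.1 each, exact permutation test). For CG4068 those groups overlapped without cisNAT-1355 (ratio 0.813).

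The ratio of both loci within a library needs no scaling and no denominator of other loci. In total RNA of WT lines there were 4.76, 5.39 and 5.27 CG4068 reads per 1000 overlap-3 reads. Treated WT libraries held 0.879, 0.576 and 0.679, so that the mean ratio fell to 0.138 of that in total RNA. Ago1-IP WT libraries held 6.69, 7.32 and 11.2, which was 1.64 times the ratio in total RNA. Neither group overlapped the total libraries (p = 0.1 each, two-sided exact permutation test, adjusted p = 0.1 over 2 comparisons). Relative to overlap-3, reads of the CG4068 locus were therefore fewer in treated and more frequent in Ago1-IP libraries. The difference of batch given above applies. Whether these reads were siRNAs of the hairpin or other RNA of the locus was not tested.

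**Figure D3:**
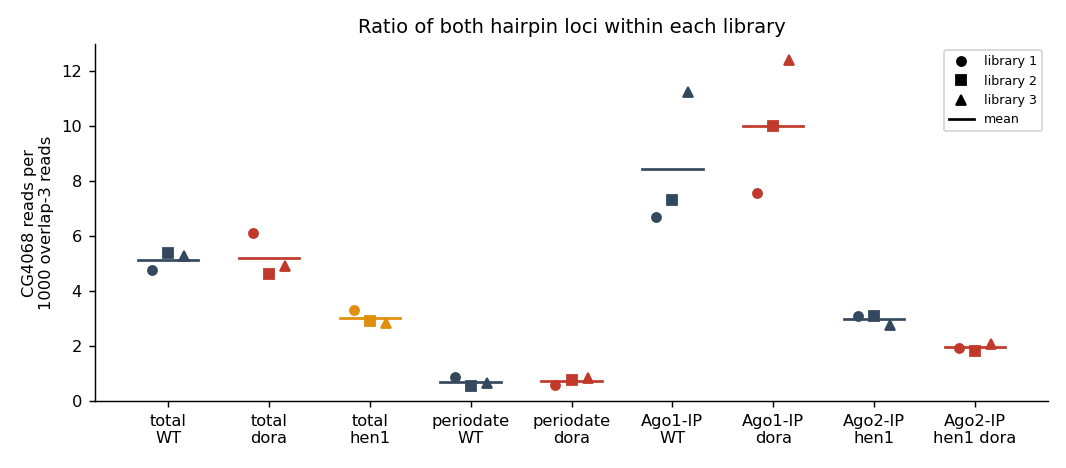
Reads of CG4068 per 1000 reads of overlap-3 (y axis, from 0) in each small-RNA library, by library type and genotype (x axis). Points are the 3 libraries of a group and lines their mean. Treated libraries of both genotypes lie between 0.576 and 0.879, and Ago1-IP libraries between 6.69 and 12.4.

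The ratio in Ago2 could be compared with total RNA in hen1 lines. In Ago2-IP RNA of these lines there were 3.11, 3.10 and 2.76 CG4068 reads per 1000 overlap-3 reads, and in total RNA of hen1 lines 3.31, 2.90 and 2.84. These groups overlapped.

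Loss of Dora left both hairpins without a detectable change in total small RNA. On the scale of the deposited values (reads of a locus relative to all genome-mapped reads), CG4068 had a signal of 12949, 15642 and 15334 in WT and 13923, 13632 and 21140 in dora lines. Overlap-3 had 2721300, 2899830 and 2910400 in WT and 2282800, 2946090 and 4299180 in dora lines. The groups overlapped for both, and the highest value of each was in the same dora library. The log2 fold changes on the log2(value + 1) scale were 0.12 (95% interval -0.69 to 0.93, adjusted p = 0.911, limma) and 0.11 (-0.73 to 0.96, adjusted p = 0.922). At an adjusted p under 0.05, 0 of 963 loci tested were called (0%), and 89 had an unadjusted p under 0.05. With edgeR on recovered reads 1 locus was called, and neither hairpin was.

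In periodate-treated RNA neither locus passed the test either. CG4068 had 28, 23 and 34 reads in WT and 15, 47 and 55 in dora lines, so that its values rest on few reads. Its signal was 3349, 3037 and 3603 in WT and 2038, 4687 and 5557 in dora lines. That of overlap-3 was 3811220, 5270290 and 5308490 in WT and 3415150, 5902410 and 6451690 in dora lines. The dora values surrounded the WT values for both loci. Their log2 fold changes were 0.18 (95% interval -0.96 to 1.32, adjusted p = 0.949, limma) and 0.10 (-0.96 to 1.15, adjusted p = 0.963), with 0 of 1323 loci called (0%, 94 at an unadjusted p under 0.05, and 6 called without dora replicate 3). For CG4068 the interval runs from 0.514-fold to 2.49-fold. There were 0.711 ± 0.154 CG4068 reads per 1000 overlap-3 reads in treated WT and 0.751 ± 0.138 in treated dora libraries (SD, n = 3 each), an exact permutation p of 0.8.

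Ago1-bound small RNAs of both hairpin loci were more abundant without Dora in every library, although neither locus passed the main test. CG4068 had 21, 18 and 44 reads in Ago1-IP libraries of WT lines and 53, 74 and 125 in those of dora lines. Its scaled signal was 1694, 1968 and 3281 in WT and 4077, 4616 and 8489 in dora lines, and the lowest dora value lay above the highest WT value. For overlap-3 the signal was 253166, 268860 and 291960 in WT and 538045, 462022 and 685940 in dora lines, again with no overlap. Among the 228 loci tested, 10.1% had every dora library above every WT library.

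The log2 fold change in Ago1-IP RNA was 1.29 for CG4068 (standard error 0.47, 2.44-fold) and 1.03 for overlap-3 (standard error 0.38, 2.05-fold), against a median of 0.05 over the 228 loci. Their limma p-values were 0.0248 and 0.0254 and, adjusted over all loci, 0.376 for each. At an adjusted p under 0.05 the test called 1 locus (0.439%), overlap-194, a merged entry that is no member. With edgeR on reads recovered from the same values, 10 loci rose (4.39%) and 8 fell, and both hairpins were among those that rose: CG4068 by 1.21 on the log2 scale (adjusted p = 0.00096) and overlap-3 by 0.99 (adjusted p = 1.1e-17). With limma on the 36 loci of at least 10 reads in every library, overlap-3 passed (adjusted p = 0.0336) and CG4068 did not (adjusted p = 0.139). The standard error of overlap-3 was 0.19 in that fit, 0.38 in the main test and 0.099 with edgeR, all on the same libraries. These fits draw part of the spread from other loci, so that the size of the p-values depends on the fit. Over all alternatives the log2 fold changes ranged from 0.97 to 1.57 and from 0.88 to 1.17, and every one was positive. The paper tested Ago1-associated siRNAs by locus with CuffDiff. It reported a significant increase without Dora for a few loci, CG4068 and CR18854 among them.

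As shares of locus reads, both hairpins also stood higher in the Ago1-IP libraries of dora lines. The share of overlap-3 went from 12.7%, 11.7% and 14.0% in WT to 27.1%, 24.5% and 27.9% in dora lines, and that of CG4068 from 0.0850%, 0.0857% and 0.157% to 0.206%, 0.245% and 0.346%. The means were 2.07 and 2.43 times as high, with no overlap for either (two-sided exact permutation p = 0.1 each, the smallest possible, adjusted p = 0.24 over the 12 comparisons of genotypes). As cisNAT-1355 held a smaller share in these dora libraries (given above), the shares were also taken without it, and the ratios of the means were then 1.82 and 2.13, again with no overlap. The ratio of both loci did not separate the genotypes, since CG4068 reads per 1000 overlap-3 reads were 8.42 ± 2.46 in WT lines (SD, n = 3) and 7.58, 9.99 and 12.4 in dora lines, with overlapping groups (exact permutation p = 0.5).

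Whether the change in Ago1-IP RNA differed from that in the other library types was tested as an interaction. Relative to total small RNA the change was larger by 1.17 on the log2 scale for CG4068 (95% interval 0.00 to 2.33, adjusted p = 0.572, limma) and by 0.92 for overlap-3 (-0.05 to 1.90, adjusted p = 0.583). Relative to treated RNA it was larger by 1.11 (-0.38 to 2.60, adjusted p = 0.704) and 0.94 (-0.40 to 2.28, adjusted p = 0.738). No locus was called in either test (0% of 197 and 0% of 175, limma), while 17 and 12 loci had an unadjusted p under 0.05, among them CG4068 against total RNA. Medians over all loci were 0.17 and 0.34. A difference between library types was therefore not shown, and both comparisons share the Ago1-IP libraries.

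Ago2-bound RNA of lines without Hen1 showed no overlap between genotypes for overlap-3 and an overlap for CG4068. CG4068 had a signal of 4954, 2823 and 3871 in hen1 lines and 3649, 3311 and 4223 in hen1/dora lines, within each other's range and with 20 to 35 reads a library. Overlap-3 had 1591230, 910742 and 1403510 in hen1 lines and 1886030, 1794910 and 2021090 in hen1/dora lines, and every hen1/dora library was above every hen1 library. Of 1162 loci tested, 5.77% had this pattern. The log2 fold changes were -0.03 (95% interval -0.85 to 0.79, adjusted p = 0.988, limma) and 0.58 (-0.23 to 1.40, adjusted p = 0.804), and 0 loci were called (0%, 79 at an unadjusted p under 0.05). With edgeR on recovered reads 6 loci were called, neither hairpin among them.

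In these Ago2-IP libraries the ratio of both hairpins did not overlap between genotypes. There were 2.99 ± 0.201 CG4068 reads per 1000 overlap-3 reads in hen1 lines and 1.96 ± 0.124 in hen1/dora lines (SD, n = 3 each), 0.654 times as many and without overlap. The exact permutation test gave p = 0.1, the smallest possible, and an adjusted p of 0.3 over 6 comparisons of genotypes.

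**Figure D4:**
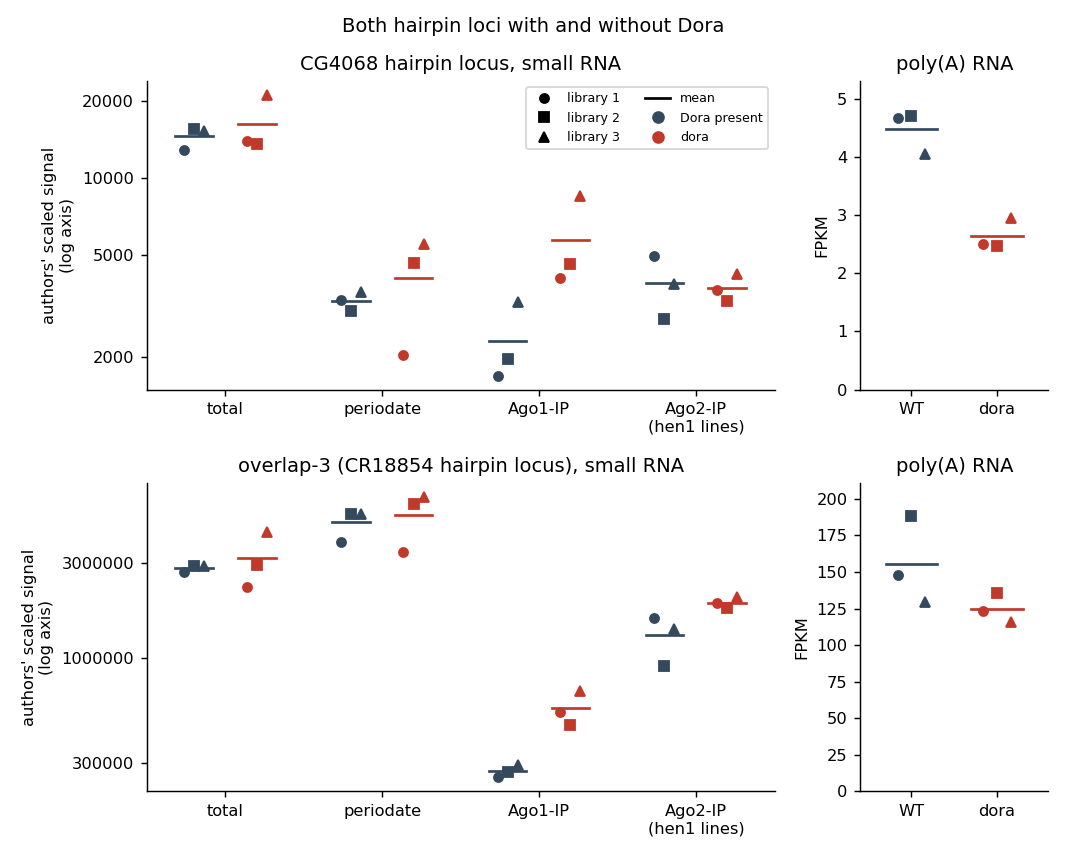
Small-RNA signal of CG4068 and overlap-3 as scaled by the authors (y axis, logarithmic) in total, periodate-treated, Ago1-IP and Ago2-IP libraries, and FPKM in poly(A) RNA (y axis, from 0), with Dora (dark) and without (red). Points are the 3 libraries of a group and lines their mean. In Ago1-IP libraries all dora values lie above all WT values for both loci, and in poly(A) RNA all dora values of CG4068 (2.47 to 2.94 FPKM) lie below those of WT (4.05 to 4.71 FPKM).

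Poly(A) RNA of the loci was not higher without Dora. CG4068 had 4.66, 4.71 and 4.05 FPKM in WT and 2.50, 2.47 and 2.94 FPKM in dora lines, with no overlap. Overlap-3 had 148, 188 and 129 FPKM in WT and 123, 135 and 116 FPKM in dora lines, which overlapped. On the log2(FPKM + 0.01) scale the differences were -0.76 for CG4068 (95% interval -1.36 to -0.16, adjusted p = 0.314, limma) and -0.30 for overlap-3 (-0.95 to 0.34, adjusted p = 0.68), against a median of -0.12 over 1921 loci. None of these was called (0%, 252 at an unadjusted p under 0.05), and 12.6% of the loci had every dora library below every WT library. RNA-seq depth is unknown from FPKM, and poly(A) selection leaves out any precursor without a tail.

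By these values the 2 loci were far closer in poly(A) RNA than in small RNA. The FPKM of CG4068 can hold RNA of CG44774 on the same strand. Of the 50-nt windows of CG4068, 84.9% occur at 2 or more places in the genome. Whether the FPKM stand for hairpin precursor was not tested. Overlap-3 had 34.6 ± 4.68 times the FPKM of CG4068 in WT lines and 47.8 ± 7.89 times in dora lines (SD, n = 3 each). In total small RNA of WT lines it had 364 times the reads per kilobase. Whether the FPKM are relative to locus length was not tested, so that the 2 measures may differ in this. With FPKM taken as relative to length, the values were also divided by the unique windows of each locus in place of its length. The ratios were then 5.25 in poly(A) RNA (50-nt windows) and 55.9 in total small RNA (21-nt windows) of WT lines. That division takes only reads of unique windows as counted, which was not tested either. Overlap-3 ranked 469 to 612 among loci by FPKM and first by reads in every total and treated small-RNA library. On the opposite strand, a cisNAT entry (2L:9787351-9788370) that lies within the overlap of IP3K1 with the 3′ part of overlap-3 had 10.9 to 19.1 FPKM in WT and 7.35 to 12.2 FPKM in dora lines. It had 115 to 121 reads in total small RNA of WT lines.

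Without Hen1 the scaled signal of the CG4068 locus fell in total small RNA, whereas a change of overlap-3 did not pass the test. Reads of CG4068 were 89, 115 and 94 in WT and 137, 77 and 86 in hen1 lines, while the hen1 libraries held more reads of the 15 miRNAs used for scaling. Per 1000000 reads of these miRNAs, CG4068 had 57.2, 69.8 and 82.3 reads in WT and 42.6, 23.5 and 24.9 in hen1 lines, and overlap-3 had 12015, 12941 and 15626 in WT and 12848, 8104 and 8752 in hen1 lines. The groups of CG4068 did not overlap, which held for 20.6% of 1002 loci in this direction. Those of overlap-3 overlapped through hen1 replicate 1.

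The log2 fold change of CG4068 upon loss of Hen1 was -1.20 (standard error 0.28, adjusted p = 0.00257, edgeR quasi-likelihood), or 0.436-fold, and that of overlap-3 was -0.45 (standard error 0.19, adjusted p = 0.134). The median over all loci was -0.30, and 88 loci were called (8.78%), 17 higher and 71 lower. With TMM scaling over the loci the median was -0.04, CG4068 was at -0.93 (adjusted p = 0.0169) and overlap-3 at -0.17 (adjusted p = 0.739). CG4068 remained past the threshold in all 12 alternatives (adjusted p from 0.00020 to 0.0448). Overlap-3 passed in 1 of them, without hen1 replicate 1, at -0.68 (adjusted p = 0.00055), where 75 loci were called. Without WT replicate 3 the count of called loci was 36, and CG4068 was among them (-1.07, adjusted p = 0.0448). Loss of Hen1 also changes the 3′ end to which the adaptor is ligated. From these read counts alone, a change in level cannot be told apart from one in ligation. The paper measured CG4068_1 and CR18854_1 by northern blot as well. It reported decreases near those by sequencing and judged the ligation bias to be minimal, if present. Those blots cover single siRNAs and not the locus values.

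Relative to overlap-3, CG4068 was also lower without Hen1. The ratio was 5.14 ± 0.337 reads per 1000 in WT and 3.02 ± 0.257 in hen1 lines (SD, n = 3 each), 0.587 times as many with no overlap. As a share of locus reads CG4068 went from 0.199% to 0.117% on average, again without overlap, while overlap-3 stayed at 38.6% and 38.3% with overlapping groups. The exact permutation test gave p = 0.1 for the ratio (adjusted p = 0.3) and for the share of CG4068 (adjusted p = 0.24), and p = 1.0 for the share of overlap-3.

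**Figure D5:**
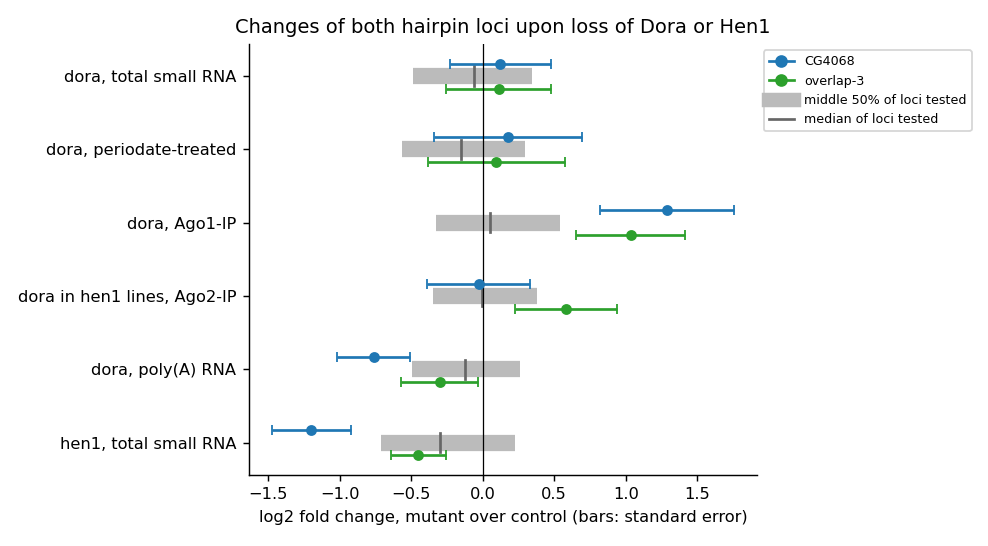
Log2 fold changes of CG4068 (blue) and overlap-3 (green) upon loss of Dora or Hen1 (x axis) in 6 comparisons (y axis), with standard errors. Grey bars span the middle 50% of all loci tested and dark ticks mark their median. Both hairpins lie at 1.29 and 1.03 in Ago1-IP RNA of dora lines, and CG4068 at -1.20 in total small RNA of hen1 lines, the only member value shown that passed its main test.

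Of the remaining hairpin entries, 2 gave no signal and 1 gave small-RNA reads and FPKM. CR46340 (202 nt, chromosome 3L) and Downstream_CG4770 (184 nt, chromosome 3R) were at 0 in every small-RNA and RNA-seq library. Downstream_koi (618 nt, chromosome 2R) had 19 to 158 reads in total small-RNA libraries of WT and dora lines, 33 to 118 in treated libraries, 3 to 23 in Ago1-IP libraries and 4 to 24 in Ago2-IP libraries, and 18.5 to 41.0 FPKM. In treated libraries CG4068, a locus more than 10 times as long, had 15 to 55 reads.

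Both hairpins were among the 17 loci with at least 10 reads in all 27 small-RNA libraries. Among the other loci of this small set, the patterns most like those of the hairpins were sought by the correlation of log2 shares. For CG4068 these were cisNAT-336 (r = 0.57), FBti0063646- (r = 0.57) and a cisNAT locus of chromosome 3R (21880809 to 21883912, r = 0.57). Within the total, treated, Ago1-IP or Ago2-IP libraries taken alone, the correlations with these 3 loci lay between -0.76 and 0.02, so that the likeness rests on differences between library types. For overlap-3 they were FBti0019384- (r = 0.73) and both strands of FBti0060280 (r = 0.70 and 0.68), and within library types the correlations lay between -0.66 and 0.89. Shares of a library add up to a fixed total, and overlap-3 makes up much of it.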

How the data were processed

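The members and lists were chosen with earlier results of these data known. The authors aligned small-RNA reads with STAR to the fly genome (dm6), allowing up to 50 places, and deposited for each locus a signal from CuffDiff (Cufflinks 2.2.1) with multi-read correction, no length correction and scaling to genome-mapped reads. For the comparison of hen1 with WT lines the deposited values were unscaled counts, whose WT columns matched the reads recovered here at every locus. RNA-seq values were deposited as FPKM, computed by the authors with CuffDiff. By the paper's methods they were analysed like the small-RNA reads apart from strandedness, and length correction was off there. Whether these FPKM are relative to locus length was not tested. All value columns were mapped to samples or groups (0 left over).

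Signal values were whole multiples of a step in each library (99.9% to 100.0% of loci within 0.05 of a whole number), which gave reads per locus in total, Ago1-IP and Ago2-IP libraries for the alternative with edgeR. In treated libraries the steps were used for shares and reads only, and no count test was run. The scaled signal was tested as log2(value + 1) and FPKM as log2(FPKM + 0.01) with limma 3.58.1 (R 4.3.3), on loci above 0 in every library of the comparison whose coefficient of variation stayed below 1 within both genotypes. Library types were compared by interaction contrasts. Counts of the hen1 comparison were tested with edgeR 4.0.16 (quasi-likelihood) on library sizes from 15 miRNAs, with DESeq2 1.42.0 as an alternative. P-values were adjusted over all loci tested (Benjamini-Hochberg), and calls were made under 0.05. For shares and ratios the exact permutation test was used (two-sided, smallest p = 0.1). The fits were also run on simulated data for the loci that passed the filters. Replicates are clonal lines, so that the tests compare groups of clones. In limma, edgeR and DESeq2 the spread of a locus is estimated with information from other loci. Their p-values therefore do not rest on the spread between clones at that locus alone.

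Both members were named by rule, and other loci only as the 3 most alike in pattern, as further hairpin entries, as the opposite strand of overlap-3, or (overlap-194 and cisNAT-1355) after values were seen. Sequences are from RefSeq (Release 6 of the genome, the sequence of dm6) and from the study's probes. Repeats were found with BLASTN 2.17.0. In total small RNA the dora replicate numbers of the locus and miRNA tables did not appear to denote the same libraries, and miRNA scaling was not used there. Alternatives covered pseudocounts, filters, scaling, tools, the replicate block and each library left out.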

Additional observations from a re-analysis of the deposited data

How the results depend on the processing

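Depth limits CG4068, which had 15 to 55 reads in treated, 18 to 125 in Ago1-IP and 20 to 35 in Ago2-IP libraries. Counts of called loci changed with the filter: without it they were 46 in total, 68 in treated, 0 in Ago1-IP, 59 in Ago2-IP and 29 in poly(A) RNA for loss of Dora, against 0, 0, 1, 0 and 0. With edgeR on recovered reads they were 1 in total, 18 in Ago1-IP and 6 in Ago2-IP libraries, and CG4068 (1.21) and overlap-3 (0.99) passed in Ago1-IP RNA. With at least 10 reads in every library, overlap-3 passed there (1.03), 1 locus was called in Ago2-IP RNA and 1 in the interaction of Ago1-IP with total RNA. Scaling to the miRNA cohort gave 1 call in the interaction with treated RNA, and in treated RNA itself CG4068 was at -0.011 and overlap-3 at -0.094 (-0.080 with the summed locus signal), against positive values. The share of overlap-3 in treated RNA, dora over WT, was 1.01 without cisNAT-1355 and 1.02 over all other loci, and that in hen1 over WT was 1.00 over all other loci, against values below 1. An added alternative, chosen after seeing the data, divided by unique windows: overlap-3 over CG4068 was then 55.9 in total small RNA and 5.25 in poly(A) RNA of WT lines. The latter value takes FPKM as relative to locus length. The cause of these changes was not tested.

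With each library left out in turn, 298 of the values kept their call, 22 near no change turned direction, 3 counts moved and 1 value passed the threshold (overlap-3 in hen1 lines). Log2 fold changes for loss of Dora ranged in total RNA from -0.083 to 0.23 (CG4068) and from -0.13 to 0.32 (overlap-3), in treated RNA from -0.10 to 0.62 and from -0.079 to 0.38 with 0 to 6 loci called, and in Ago2-IP RNA from -0.24 to 0.17 (CG4068). The interaction with treated RNA gave 0 to 1 calls. For loss of Hen1, 36 to 102 loci were called and overlap-3 ranged from -0.68 to -0.32. Shares, dora over WT, ranged from 0.947 to 1.12 (CG4068) and 0.916 to 1.13 (overlap-3) in total RNA and from 0.839 to 1.31 and 0.834 to 1.11 in treated RNA, and hen1 over WT from 0.912 to 1.04 (overlap-3). Ratios of CG4068 to overlap-3 ranged from 0.928 to 1.07 in total and from 0.964 to 1.20 in treated RNA. Replicate numbers were not taken as pairs, since deviations of same-numbered libraries correlated at -0.113 to 0.177. A replicate block changed no call of either hairpin and gave 122 called loci against 88 for loss of Hen1, where every library (6 of 6) correlated best with its own number, as did 4 of 6 in Ago1-IP and 2 of 6 in each of the other tables. No block was fitted for Ago2-IP, whose numbered columns were mapped to a group and not to single samples. Not run were miRNA scaling in total RNA of dora lines, edgeR in treated RNA and the comparison of hen1/dora with hen1 lines in total RNA.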
